A study of Mus musculus with 12 samples.

Results

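The heat-shock chaperones described here are 10 genes: Hspa1a and Hspa1b, which encode the inducible HSP70, Hspa8, Hsp90aa1, Hsp90ab1, Hsph1, Dnajb1, Hspd1, Hspe1 and Hsf1. They were taken by gene symbol from a table of read counts for 27179 genes, where all 10 were found, and all 10 passed the filter on low counts that left 12672 genes for testing. The counts come from RNA sequencing of macrophages sorted from the mammary ducts of female C57BL/6 mice, with 3 libraries labelled as biological replicates at each of 4 stages. The stages were virgin, day 16.5 of pregnancy (pregnant), lactating, and 1 month after weaning (post-weaning). No transgene, deletion or drug is named for any stage, and the labels state neither the age of the mice, nor the day of lactation, the sort gates or whether mice were pooled. Each cDNA library was made from 2000 cells. A replicate is numbered within its stage, and a number shared between stages does not pair libraries.

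Heat-shock proteins fold new proteins, refold damaged ones and hold others back from clumping. HSF1, the transcription factor encoded by Hsf1, is held inactive by chaperones in resting cells, and heat or other damage frees it to bind heat-shock elements in the promoters of chaperone genes. Inducible HSP70 is the classic target and low in many unstressed cells, while HSC70 (Hspa8) and HSP90 beta (Hsp90ab1) are abundant at rest. Macrophages carry the same system.

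A heat-shock element is made of 3-base units, GAA and TTC (GAA as read on the opposite strand), that face each other across 2 free bases. RefSeq promoter windows of GRCm38.p6, which run from 250 bases before to 50 after an annotated start, were given for 6 of the 10 genes, in 9 windows. Each window was searched for 2 facing units (GAANNTTC or TTCNNGAA, whose letters read the same on both strands) and for 3 (GAANNTTCNNGAA or TTCNNGAANNTTC, which are each other's reverse on the opposite strand and overlap the matches of 2 units). At least 1 match of 2 units was found in 6 of the 9 windows, against 15.1% of 32851 mouse promoter windows, and a match of 3 units in 4 windows, against 0.603%. Windows overlap and share elements, so these matches lie at 5 separate places in the genome, 2 of which hold 3 units. The upstream parts of 4 windows are shown because they hold the matches and belong to genes followed closely below, with the matched letters in capitals. The Hspa1a sequence is chr17:34972157-34972406 and the Hspa1b sequence chr17:34959239-34959488, both on the minus strand. The Hspe1 sequence is chr1:55087898-55088147 on the plus strand, and that of the first Hsph1 start is chr5:149636337-149636586 on the minus strand.
Hspa1a: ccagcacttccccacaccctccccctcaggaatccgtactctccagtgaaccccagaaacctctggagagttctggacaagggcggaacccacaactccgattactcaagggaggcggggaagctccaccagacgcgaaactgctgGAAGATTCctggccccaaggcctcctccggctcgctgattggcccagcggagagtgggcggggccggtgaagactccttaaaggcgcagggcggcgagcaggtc
Hspa1b: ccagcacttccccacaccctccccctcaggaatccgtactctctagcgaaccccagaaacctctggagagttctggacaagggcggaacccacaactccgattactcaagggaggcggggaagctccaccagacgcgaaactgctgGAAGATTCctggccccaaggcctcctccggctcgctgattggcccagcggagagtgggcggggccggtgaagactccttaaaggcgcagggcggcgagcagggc
Hspe1: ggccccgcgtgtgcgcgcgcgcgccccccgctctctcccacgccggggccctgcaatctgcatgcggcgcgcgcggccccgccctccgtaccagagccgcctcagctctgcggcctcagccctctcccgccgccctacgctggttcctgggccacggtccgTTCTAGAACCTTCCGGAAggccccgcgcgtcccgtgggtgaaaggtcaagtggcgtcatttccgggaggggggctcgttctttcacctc
Hsph1: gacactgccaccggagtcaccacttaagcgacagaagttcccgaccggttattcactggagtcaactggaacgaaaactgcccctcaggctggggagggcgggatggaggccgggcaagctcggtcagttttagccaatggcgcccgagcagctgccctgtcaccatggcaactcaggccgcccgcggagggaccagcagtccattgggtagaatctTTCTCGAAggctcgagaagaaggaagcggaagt
The Hspa1a and Hspa1b sequences were identical at 247 of 250 bases (98.8%), and each held 1 match of 2 units, GAAGATTC, from 104 to 97 bases before the start. The Hspe1 sequence held 2 overlapping matches of 3 units, from 89 to 72 bases before the start. Hspd1 lies head to head with Hspe1, and the window of its second start reads the same element on the opposite strand, from 144 to 127 bases before that start. The Hsph1 starts lie 21 bases apart, and both windows hold the same elements, 1 of 2 units before the starts and 1 of 3 units after them. The windows of Dnajb1 and of the first Hspd1 start held none of these letters.

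**Figure D1:**
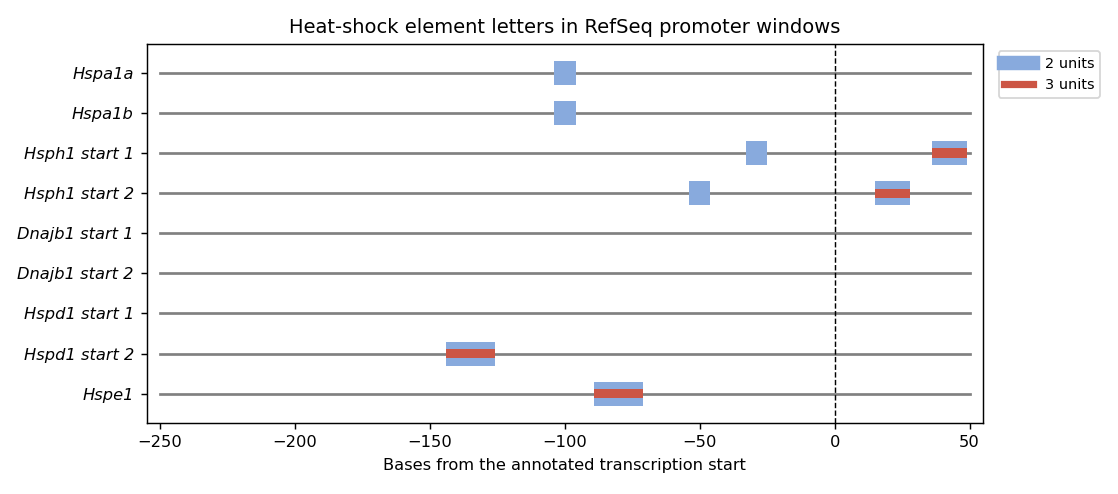
Positions of heat-shock element letters in the 9 RefSeq promoter windows of 6 genes, in bases from the annotated transcription start (dashed line). Wide blue boxes are matches of 2 facing units and narrow red boxes matches of 3 units; the match of 3 units lies before the start in Hspe1 and the second Hspd1 start, and after it in Hsph1.

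Library totals ran from 6926273 to 21204704 counts and the genes detected from 10178 to 13790. Lactating replicates 1 and 2 had the lowest totals, 7304269 and 6926273 counts. Their TMM scaling factors were 0.791 and 0.792, against 1.00 to 1.14 in the other libraries. Macrophage identity genes (22 genes, among them Cd74, Csf1r and Adgre1) took 11.7% to 17.4% of counts in 11 libraries. Lactating replicate 3 stood apart, with 6.48% in those genes, the fewest genes detected, 37476 CPM (counts relative to the TMM-scaled library total) of the nuclear RNA Malat1 against 12075 and 16675.5 CPM in the other lactating libraries, and 7.45% of its counts in 14 milk protein and secretory cell genes. Milk genes took 0.204% and 0.200% of the other lactating libraries, 0.0687% to 0.104% of the virgin, 0.272% to 1.54% of the pregnant and 0.169% to 0.271% of the post-weaning libraries, and 7 of the 14 were at 0 in all virgin libraries. Results that rest on this library are therefore given with and without it. In bulk samples such as these, fewer cells of a type and less RNA per cell cannot be told apart.

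Per length, Hsp90ab1 had the highest mean of the 10 genes at every stage. In RPKM (CPM divided by the gene's length in kilobases) it averaged 284 ± 31.7 in virgin libraries, 277 ± 44.0 in pregnant ones, 396 ± 104 in lactating ones and 372 ± 28.6 in those after weaning (SD, n = 3 each). Next in the virgin libraries came Hspa1b with 154 ± 70.0 RPKM, Hspa8 with 148 ± 34.0 RPKM, Hspe1 with 93.2 ± 6.81 RPKM and Hspa1a with 93.0 ± 46.3 RPKM. The virgin libraries of Hspa1b and Hspa8 overlapped, and so did those of Hspe1 and Hspa1a, whereas every virgin library had more Hspa8 than Hspe1. In lactating libraries the next were Hspa8 with 133 ± 68.4 RPKM and Hspe1 with 95.8 ± 21.4 RPKM, while Hspa1b averaged 47.4 ± 65.1 RPKM and Hspa1a 38.2 ± 54.7 RPKM. Hsph1 had the lowest mean at every stage, 7.68 to 12.2 RPKM, followed by Hsf1 with 11.1 to 17.7 RPKM. The whole group took 0.169% to 0.287% of the counts in the virgin, 0.167% to 0.203% in the pregnant, 0.110% to 0.323% in the lactating and 0.223% to 0.343% in the post-weaning libraries.

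**Figure D2:**
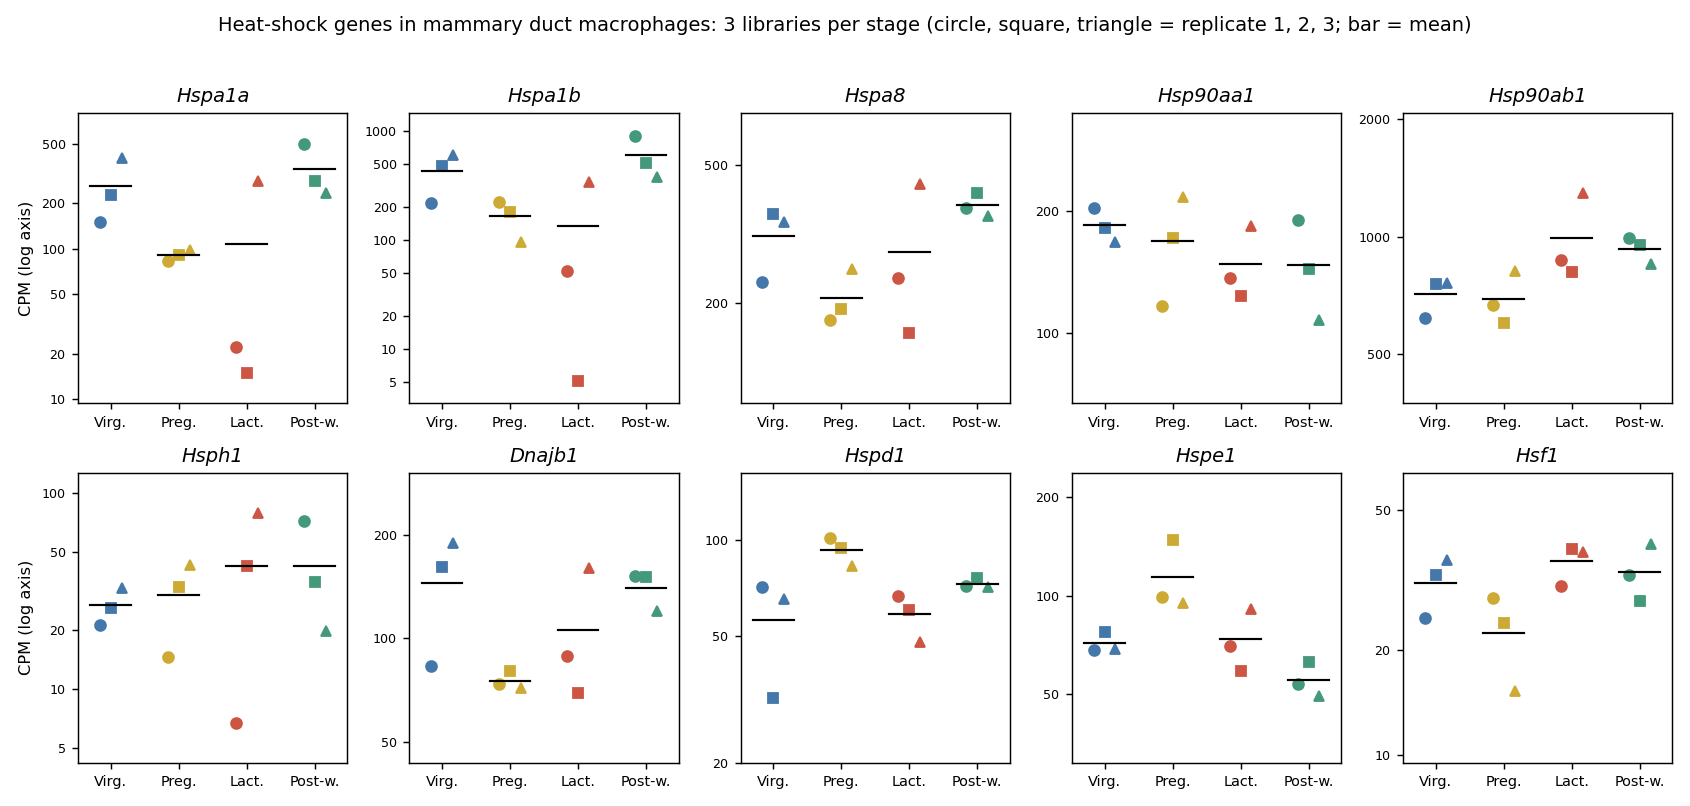
Level of each of the 10 genes in CPM (log axis, its own range in each panel) in the 12 libraries, in the order virgin, pregnant, lactating, post-weaning; circles, squares and triangles are replicates 1, 2 and 3 and bars are stage means. Hspa1a and Hspa1b span 33.2-fold and 178-fold between their lowest and highest library, and the 7 other genes apart from Hsph1 span 2.01-fold to 3.19-fold.

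The inducible HSP70 genes varied most. Hspa1a (Entrez gene 193740, chromosome 17, 34969359 to 34972156) had 149, 228 and 403 CPM in virgin mice, 82.8, 90.6 and 98.4 CPM in pregnant mice, 22.0, 15.0 and 283 CPM in lactating mice and 497, 282 and 236 CPM after weaning. Its 3 pregnant libraries lay below every virgin and every post-weaning library, and 2 of the 3 lactating libraries lay below all others. Hspa1b (Entrez gene 15511, chromosome 17, 34956429 to 34959238) had 217, 478 and 603 CPM in virgin libraries, 224, 180 and 96.8 CPM in pregnant ones, 52.0, 5.12 and 343 CPM in lactating ones and 908, 512 and 379 CPM in post-weaning ones. The same lactating libraries, replicates 1 and 2, were its lowest, and post-weaning lay above pregnant and above lactating with no overlap. In raw counts those 2 lactating libraries held 127 and 82 reads of Hspa1a and 300 and 28 reads of Hspa1b, against 3228 and 3907 reads in lactating replicate 3.

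These transcripts cannot be fully separated by short reads. The longest open reading frames of Hspa1a and Hspa1b in the GENCODE vM21 transcripts were identical at 1918 of 1929 aligned positions (99.4%), with 1 identical run of 638 bases, whereas Hspa8 matched Hspa1a at 74.1%. Of all 75-base stretches of the transcripts, 52.7% of those of Hspa1a and 55.8% of those of Hspa1b occurred in the other gene. The count of each gene alone is therefore uncertain, while the sum does not depend on how shared reads were split between the 2 genes. How reads that match both genes were handled is not given. If they were dropped, the sum and the RPKM values of both genes are too low. Summed, inducible HSP70 stood at 367, 707 and 1005 CPM in the virgin, 307, 271 and 195 CPM in the pregnant, 74.0, 20.1 and 626 CPM in the lactating and 1405, 795 and 615 CPM in the post-weaning libraries. The sum in every pregnant library lay below every virgin and every post-weaning library, and lactating replicates 1 and 2 lay below all other libraries. Hspa1a made up 27.0% to 74.5% of the pair, and the highest share was in the library with the fewest reads of the pair, 110.

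**Figure D3:**
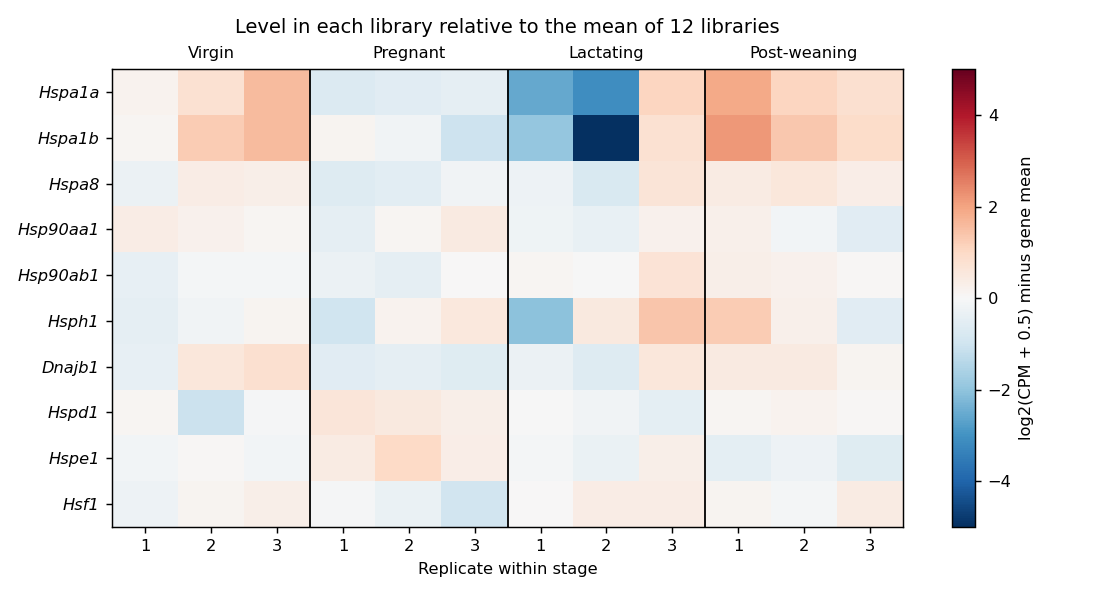
Level of each gene in each library as log2(CPM + 0.5) minus that gene's mean over the 12 libraries (red above, blue below the mean), with replicates 1 to 3 of each stage side by side. The darkest blue cells are Hspa1b and Hspa1a in lactating replicate 2; Hspa1a, Hsph1 and Hspa1b are also blue in lactating replicate 1, while lactating replicate 3 is above the mean for all 3 genes.

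With all 12 libraries in 1 edgeR quasi-likelihood fit, none of the 10 genes passed a Benjamini-Hochberg adjusted p of 0.05 in any of the 6 comparisons of stages. Over all genes tested, 1.32% passed in pregnant against virgin, 1.94% in lactating against virgin, 0% in post-weaning against virgin, 3.85% in lactating against pregnant, 0.923% in post-weaning against lactating and 0.718% in post-weaning against pregnant. A test of any difference between stages, which 3.35% of all genes passed, called none of the 10 either, with a lowest edgeR adjusted p of 0.124. At an unadjusted p under 0.05 the genes numbered 3, 1, 0, 3, 0 and 3 of 10 in the same order, where 12.2%, 16.8%, 6.04%, 18.6%, 15.1% and 10.2% of all genes reached it. DESeq2 called 1 gene in 1 of the 6 comparisons, Hspe1 in post-weaning against pregnant (adjusted p = 0.0118, where 3.99% of all genes passed), and the same gene in the test of any difference (adjusted p = 0.0316, 11.5% of all genes). For Hspa1a the log2 fold change was -1.52 ± 0.87 (SE) in pregnant against virgin mice (edgeR adjusted p = 0.563), -1.28 ± 0.86 in lactating against virgin mice (0.496), and 1.90 ± 0.88 in post-weaning against pregnant mice (0.497). In post-weaning against lactating mice it was 1.66 ± 0.87 for Hspa1a (edgeR adjusted p = 0.395) and 2.16 ± 1.00 for Hspa1b (edgeR adjusted p = 0.335), and in post-weaning against virgin mice 0.38 ± 0.85 for Hspa1a (edgeR adjusted p = 1). Hspa1b had log2 fold changes of -1.38 ± 0.98 in pregnant against virgin, -1.69 ± 0.98 in lactating against virgin and 1.85 ± 0.99 in post-weaning against pregnant mice.

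Without lactating replicate 3, Hspa1a passed the test in 5 of the 6 comparisons and Hspa1b in 2. In lactating against virgin mice, Hspa1a fell (log2 fold change -3.86 ± 0.48, edgeR adjusted p = 0.00174) and so did Hspa1b (-3.96 ± 0.85, adjusted p = 0.0291), where 1.34% of all genes were called lower. In post-weaning against lactating mice, Hspa1a rose (log2 fold change 4.25 ± 0.49, edgeR adjusted p = 0.00181) and so did Hspa1b (4.44 ± 0.88, adjusted p = 0.0250), where 0.834% of all genes were called higher. Hspa1a also fell in lactating against pregnant mice (log2 fold change -2.34 ± 0.45, edgeR adjusted p = 0.00979, 1.82% of all genes called lower), a comparison in which it was 0.24 ± 0.85 with all libraries. There Hspa1b had a log2 fold change of -2.58 ± 0.80 (edgeR adjusted p = 0.0986). Hspa1a fell in pregnant against virgin mice (-1.52 ± 0.36, edgeR adjusted p = 0.0454, 2.09% called lower) and rose in post-weaning against pregnant mice (1.91 ± 0.37, edgeR adjusted p = 0.0187, 1.69% called higher), with fold changes close to those of all 12 libraries and smaller errors. In post-weaning against virgin mice none of the 10 genes was called, where 0.0745% of all genes were, and the test of any difference called 3 (Hspa1a, Hspa1b and Hspe1, against 5.76% of all genes).

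With the pair summed, a fit chosen after seeing the data, the calls that involve lactation kept their direction without lactating replicate 3. The log2 fold changes of the sum were -3.92 ± 0.63 in lactating against virgin (edgeR adjusted p = 0.00696, 1.33% of all genes called lower), -2.49 ± 0.59 in lactating against pregnant (adjusted p = 0.0311, 1.82%) and 4.37 ± 0.65 in post-weaning against lactating mice (adjusted p = 0.00697, 0.827% called higher). The sum was not called in the other 3 comparisons, among them pregnant against virgin and post-weaning against pregnant, where Hspa1a alone had been. The lactating stage then rests on 2 libraries, with sums of 74.0 and 20.1 CPM.

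**Figure D4:**
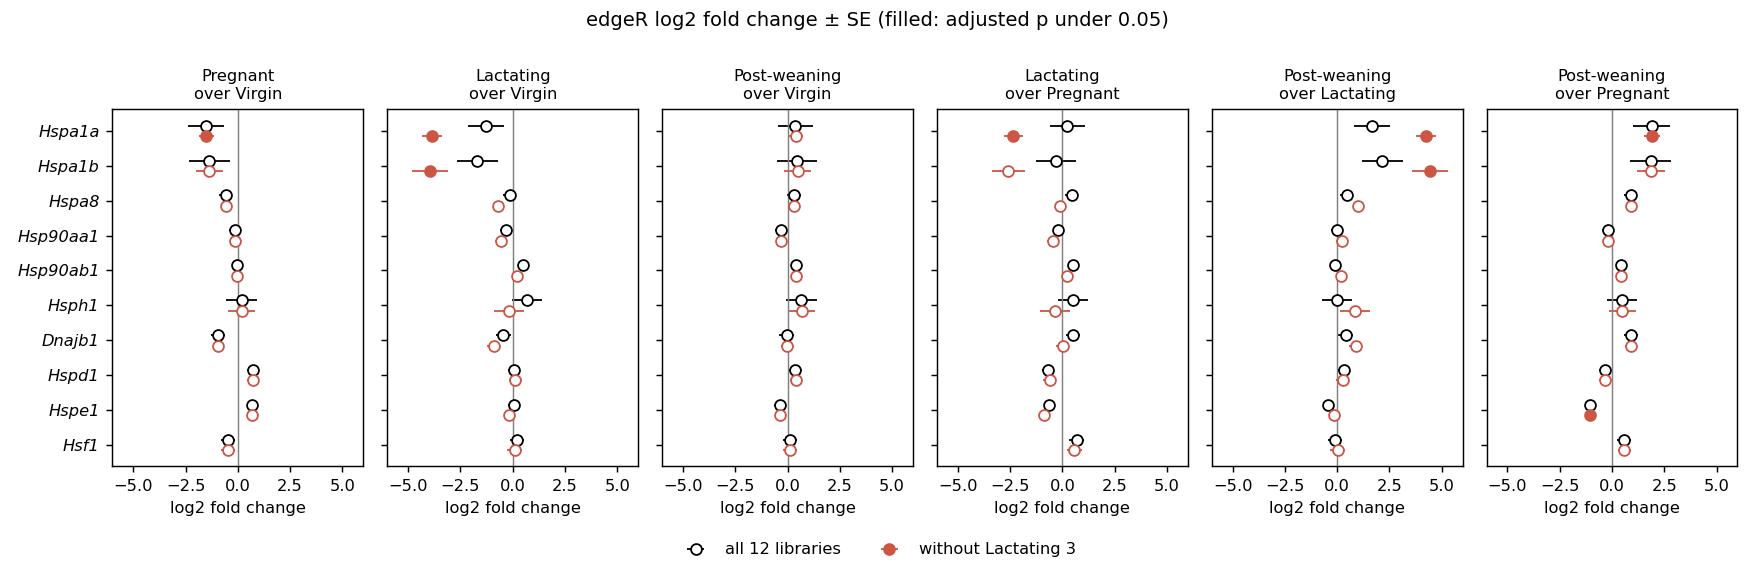
edgeR log2 fold changes (points) and standard errors (bars) of the 10 genes in the 6 comparisons of stages, with all 12 libraries (black, upper point) and without lactating replicate 3 (red, lower point); filled points have an adjusted p under 0.05. No black point is filled, and the filled red points are Hspa1a in 5 comparisons, Hspa1b in 2 and Hspe1 in 1.

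Immediate early and stress genes took their lowest share in the pregnant libraries. The 27 genes of that list, among them the transcription factor genes Fos and Jun, took 1.65%, 2.37% and 2.62% of counts in virgin mice, 0.847%, 0.667% and 0.755% in pregnant mice, 1.43%, 1.24% and 1.26% in lactating mice and 2.01%, 1.94% and 1.89% after weaning. All 27 were tested: 14 fell in pregnant against virgin (0.876% of all genes called lower), 3 fell in lactating against virgin (0.900%), 9 rose in lactating against pregnant (2.65% called higher), 1 rose in post-weaning against lactating (0.458%) and 10 rose in post-weaning against pregnant mice (0.576%), all in the fit to 12 libraries. Lactating replicates 1 and 2, lowest in inducible HSP70, lay above every pregnant library in this share. Jun, a subunit of AP-1, had 219, 425 and 503 CPM in virgin libraries, 126, 82.6 and 124 CPM in pregnant ones, 111, 58.3 and 306 CPM in lactating ones and 428, 344 and 271 CPM in post-weaning ones, so that lactating replicate 3 was again above the other lactating libraries. Fos, its partner, had 541 CPM in lactating replicate 3, between the 618 and 492 CPM of the other lactating libraries.

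Markers of other cell types were scarce, and their shares varied between libraries. Fibroblast markers (10 genes, among them the collagen gene Col1a1 and the proteoglycan gene Dcn) took 0.00331% to 0.0396% of counts in virgin, 0.00040% to 0.00075% in pregnant, at most 0.00333% in lactating and 0.00432% to 0.0176% in post-weaning libraries. Col1a1, Col1a2, Col6a2, Lum and Pdgfra were at 0 in all 3 lactating libraries, and Col6a1, Pdgfra and Pdgfrb in all 3 pregnant ones. Endothelial markers (11 genes, among them Pecam1 and Kdr) took 0.00216% to 0.00922% in virgin, 0.00036% to 0.00135% in pregnant and 0.00170% to 0.00798% in post-weaning libraries, and 0.000356%, 0.00215% and 0.0398% in lactating replicates 1, 2 and 3. None of the 9 fibroblast and 10 endothelial genes tested was called in any of the 6 comparisons in the edgeR fit to 12 libraries. At an unadjusted p under 0.05 were 0 to 7 and 0 to 5 of them, depending on the comparison, where 6.04% to 18.6% of all genes were. The largest counts, 7 of 9 and 5 of 10, exceeded all of these shares. Lactating replicates 1 and 2 also had the lowest shares of the 12 libraries in luminal and basal epithelial genes (0.0126% and 0.0147%), in T, NK and B cell genes (0.00356% and 0.00273%) and in neutrophil and mast cell genes (0.00483% and 0.00629%). The part of the immediate early genes, milk transcripts, macrophage share and these other markers in the HSP70 levels was not tested.

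**Figure D5:**
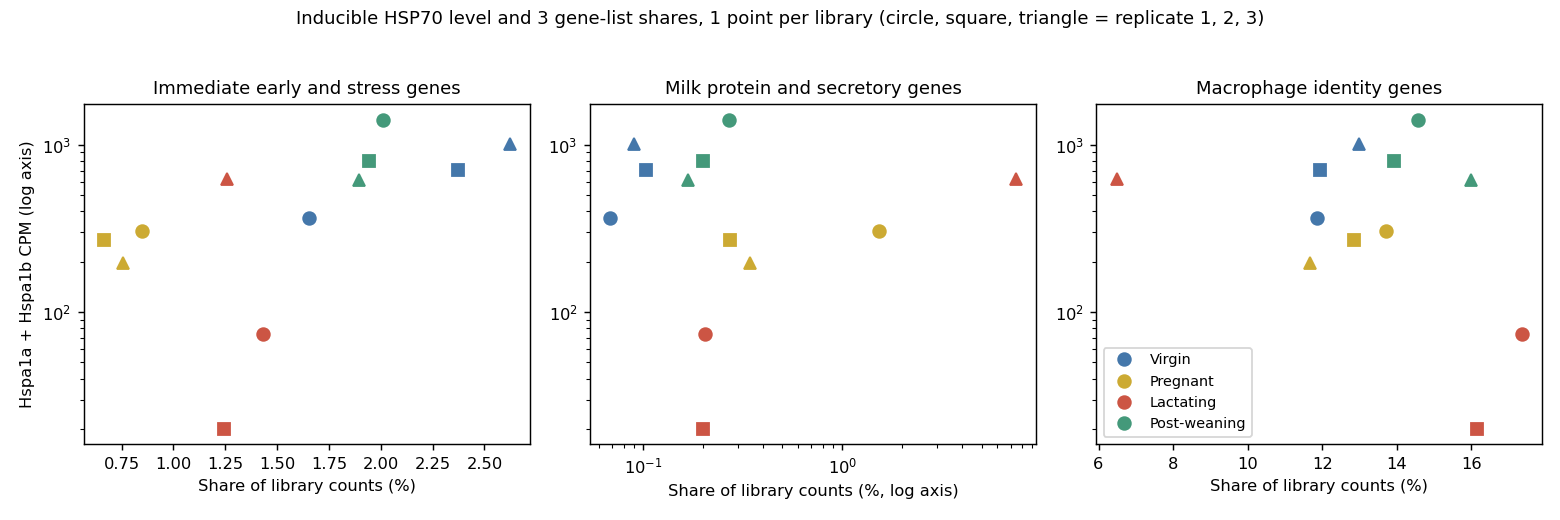
Summed Hspa1a and Hspa1b level in CPM (log axis) of each library against the share of its counts in 27 immediate early and stress genes (left), 14 milk protein and secretory genes (middle, log axis) and 22 macrophage identity genes (right), coloured by stage. Lactating replicate 3 (red triangle) lies far right in milk genes at 7.45% and far left in macrophage genes at 6.48%, and the other 2 lactating libraries have the lowest HSP70 levels.

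Hspa8 and Dnajb1, which work in the HSP70 cycle, were higher after weaning than in pregnancy in every library. Hspa8 (chromosome 9, 40801276 to 40805202), the constitutive HSC70, had 229, 361 and 342 CPM in the virgin, 178, 192 and 250 CPM in the pregnant, 235, 164 and 441 CPM in the lactating and 376, 415 and 357 CPM in the post-weaning libraries. Dnajb1 (chromosome 8, 83608175 to 83612653), a J-domain co-chaperone that hands clients to HSP70 and stimulates its ATPase, had 82.9, 161 and 189 CPM in virgin mice, 73.5, 80.5 and 71.5 CPM in pregnant mice, 88.5, 69.4 and 160 CPM in lactating mice and 151, 150 and 120 CPM after weaning. Lactating replicate 3 was the highest lactating library for both genes. In post-weaning against pregnant mice the log2 fold change was 0.89 ± 0.32 for Hspa8 (edgeR adjusted p = 0.339) and 0.90 ± 0.35 for Dnajb1 (edgeR adjusted p = 0.371). Dnajb1 also lay lower in every pregnant than in every virgin library (-0.94 ± 0.35, edgeR adjusted p = 0.296). Fitted to the 6 post-weaning and pregnant libraries alone, 5 of the 10 genes passed, where 5.02% of all genes did: Hspa1a, Hspa1b, Hspa8 (edgeR adjusted p = 0.0316) and Dnajb1 (0.0265) were higher, and Hspe1 (0.0380) was lower. Hspa1a and Hspa1b may not count independently here, since short reads cannot fully separate them.

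Hsph1 (chromosome 5, 149616843 to 149636498) encodes HSP110, a nucleotide exchange factor that resets HSP70. It had 21.2, 26.0 and 32.9 CPM in virgin libraries, 14.6, 33.2 and 42.6 CPM in pregnant ones, 6.76, 42.2 and 78.7 CPM in lactating ones and 72.0, 35.0 and 19.9 CPM in post-weaning ones. Every pair of stages overlapped, and the lowest and highest of the 12 libraries, 11.6-fold apart, were both lactating. Its lowest library was lactating replicate 1, where Hspa1a was low too, but in lactating replicate 2 it stood above its median of 33.0 CPM while Hspa1b was at its lowest.

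Hsp90ab1 and Hsp90aa1, the constitutive and the inducible cytosolic HSP90, spanned narrower ranges than inducible HSP70. Hsp90ab1 (chromosome 17, 45567778 to 45573261) had 621, 756 and 761 CPM in the virgin, 667, 600 and 815 CPM in the pregnant, 874, 813 and 1293 CPM in the lactating and 991, 952 and 852 CPM in the post-weaning libraries. Its lactating and its post-weaning libraries all lay above the virgin libraries, and its post-weaning libraries also above the pregnant ones. The log2 fold change was 0.48 ± 0.22 in lactating against virgin (edgeR adjusted p = 0.289; 0.20 ± 0.17 without lactating replicate 3, adjusted p = 0.592), 0.39 ± 0.22 in post-weaning against virgin (adjusted p = 0.913) and 0.42 ± 0.22 in post-weaning against pregnant mice (adjusted p = 0.558). Hsp90aa1 (chromosome 12, 110691036 to 110696395) had 203, 181 and 167 CPM in virgin mice, 117, 171 and 216 CPM in pregnant mice, 137, 123 and 183 CPM in lactating mice and 190, 143 and 108 CPM after weaning. All of its stages overlapped, and its 2.01-fold span over 12 libraries was the narrowest of the 10 genes. Per length, Hsp90ab1 exceeded Hsp90aa1 3.47-fold to 5.18-fold in virgin libraries, 3.98-fold to 6.51-fold in pregnant ones, 7.28-fold to 8.02-fold in lactating ones and 5.94-fold to 8.98-fold in post-weaning ones.

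The mitochondrial pair was highest in pregnancy. Hspd1 (chromosome 1, 55077833 to 55088243) encodes HSP60, the ring that folds proteins in the mitochondrial matrix, and Hspe1 (chromosome 1, 55088148 to 55091317) its lid, HSP10. Hspd1 had 71.5, 31.9 and 65.1 CPM in the virgin, 102, 94.5 and 82.7 CPM in the pregnant, 66.9, 60.5 and 48.0 CPM in the lactating and 71.7, 76.2 and 71.1 CPM in the post-weaning libraries. Hspe1 had 68.4, 77.6 and 68.8 CPM in virgin mice, 99.4, 149 and 94.7 CPM in pregnant mice, 70.3, 59.0 and 91.4 CPM in lactating mice and 53.8, 62.6 and 49.3 CPM after weaning. For both genes every pregnant library lay above every library of the other 3 stages. Of all genes, 24.2% separated without overlap in either direction in pregnant against virgin mice. The shares were 26.6% in lactating against pregnant and 27.3% in post-weaning against pregnant mice. How many genes separate pregnancy from all 3 at once was not counted. The annotated genes overlap at their starts and the counting's strand setting is unstated in the labels, so reads from the overlap cannot be told apart.

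In pregnant against virgin mice the log2 fold change was 0.73 ± 0.29 for Hspd1 (edgeR adjusted p = 0.347) and 0.67 ± 0.25 for Hspe1 (edgeR adjusted p = 0.302). Without virgin replicate 2, which had the least Hspd1, the Hspd1 value was 0.45, and without pregnant replicate 2, which had the most Hspe1, the Hspe1 value was 0.44. In lactating against pregnant mice it was -0.67 ± 0.29 for Hspd1 (edgeR adjusted p = 0.248) and -0.63 ± 0.25 for Hspe1 (edgeR adjusted p = 0.204). In post-weaning against pregnant mice Hspe1 had -1.05 ± 0.25, the smallest edgeR adjusted p of the 10 genes in any comparison, 0.105, and it fell without lactating replicate 3 (-1.03 ± 0.22, edgeR adjusted p = 0.0329, 0.603% of all genes called lower). There Hspd1 had -0.35 ± 0.29 (edgeR adjusted p = 0.880). Per length, Hspe1 exceeded Hspd1 2.10-fold to 7.38-fold over the 12 libraries.

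Hsf1 itself (chromosome 15, 76477362 to 76501155) spanned 2.63-fold over the 12 libraries. It had 24.6, 32.6 and 36.0 CPM in virgin libraries, 28.1, 23.7 and 15.2 CPM in pregnant ones, 30.3, 38.7 and 38.1 CPM in lactating ones and 32.7, 27.5 and 39.9 CPM in post-weaning ones. Its 3 lactating libraries lay above its 3 pregnant libraries (log2 fold change 0.68 ± 0.34, edgeR adjusted p = 0.308), and every other pair of stages overlapped. The lactating libraries with the least inducible HSP70 had 30.3 and 38.7 CPM of Hsf1. Its transcript level says nothing of how much of the protein is active.

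Counted over all 10 genes, 2 stages separated without overlap as follows. In pregnant against virgin mice 4 of 10 did, 2 higher (Hspd1 and Hspe1) and 2 lower (Hspa1a and Dnajb1), against 24.2% of all genes. In lactating against virgin mice 1 did (Hsp90ab1, higher), against 17.3%, and in post-weaning against virgin mice 2 did (Hsp90ab1, higher, and Hspe1, lower), against 15.4%. In lactating against pregnant mice 3 did (Hsf1, higher, and Hspd1 and Hspe1, lower), against 26.6%, and in post-weaning against lactating mice 2 did (Hspa1b and Hspd1, both higher), against 21.6%. In post-weaning against pregnant mice 7 did, against 27.3% of all genes: Hspa1a, Hspa1b, Hspa8, Hsp90ab1 and Dnajb1 were higher, and Hspd1 and Hspe1 lower. The median log2 fold change of all 10 genes there was 0.53, against 0.01 over all genes tested. Hspa1a and Hspa1b cannot be fully separated by short reads, and Hspd1 and Hspe1 overlap at their starts, so these genes may not count independently. The comparisons share libraries, so their counts are not independent. Those that involve the lactating stage include lactating replicate 3 and were not counted without it.

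Over the 12 libraries Hspa1a, Hspa1b, Hspa8 and Dnajb1 varied together and the mitochondrial genes apart from them. As a description over libraries that share depth and stage, Pearson's r of log2 CPM was 0.94 for Hspa1a and Hspa1b, 0.90 for Hspa8 and Dnajb1, 0.81 for Hspa1a and Hspa8 and 0.79 for Hspa1a and Dnajb1. The part of reads that match both Hspa1a and Hspa1b in their r was not tested. For Hspa1b, r was 0.73 with Hspa8 and with Dnajb1. For Hsph1, r was 0.20 to 0.48 with Hspa1a, Hspa1b, Hspa8 and Dnajb1. It was 0.25 for Hspd1 and Hspe1 and -0.54 for Dnajb1 and Hspd1, the lowest of all pairs. Among 7338 other genes with a mean log2 CPM of at least 3, the 5 with the pattern most like Hspa1a were Galnt2 (r = 0.93), Lrrc47 (0.91), Dnal4 (0.90), Crip2 (0.90) and Jun (0.90). Those most like Hsph1 were Sart3 (0.93), Abcc5 (0.85), Nme3 (0.84), Fibp (0.83) and Bod1l (0.82), and those most like Hsp90ab1 were Mfng (0.93), Lonp2 (0.89), Tpm2 (0.88), Sars (0.87) and Spg21 (0.87).

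Other chaperone genes, 108 in 8 lists of which 100 were tested, gave few calls. These lists cover further HSP70 and exchange factors, J-domain proteins, HSP90 co-chaperones, small heat-shock proteins, the cytosolic chaperonin TRiC with prefoldin, mitochondrial and endoplasmic reticulum chaperones, and other heat-shock factors. In the fit to 12 libraries 1 of them was called, Unc45a, an HSP90 co-chaperone best known for folding myosin. Unc45a had 67.6, 34.9 and 118 CPM in lactating libraries, against 18.8 ± 2.73 CPM in virgin and 17.6 ± 3.44 CPM in pregnant libraries (SD, n = 3 each), and averaged 23.7 ± 6.73 CPM after weaning. It rose in lactating against virgin (log2 fold change 1.97 ± 0.44, edgeR adjusted p = 0.0466, 1.04% of all genes called higher) and in lactating against pregnant mice (2.06 ± 0.44, adjusted p = 0.0245, 2.65%). Without lactating replicate 3 its log2 fold change was 1.41 ± 0.40 against virgin (edgeR adjusted p = 0.0869) and 1.49 ± 0.40 against pregnant mice (0.0554). The median log2 fold change of the 100 genes was 0.18 in pregnant against virgin, 0.11 in lactating against virgin, 0.07 in post-weaning against virgin, -0.13 in lactating against pregnant, -0.03 in post-weaning against lactating and -0.17 in post-weaning against pregnant mice. Over all genes tested it was 0.03, -0.06, 0.02, -0.14, 0.08 and 0.01 in that order, and over the 10 heat-shock genes -0.30, -0.06, 0.34, 0.34, 0.16 and 0.53. These medians include lactating replicate 3, and that of the 10 genes was not taken without it. In lactating against pregnant mice, leaving it out turned Hspa1a from 0.24 to -2.34, Hspa8 from 0.44 to -0.10 and Hsph1 from 0.50 to -0.36. Hsp90ab1, Dnajb1 and Hsf1 stayed above 0 there. For Dnajb1, 0.50 with all libraries, the lowest value over all refits was 0.02. Lactating replicates 1 and 2 had 88.5 and 69.4 CPM of Dnajb1, against 71.5 to 80.5 CPM in pregnant libraries.

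Without lactating replicate 3, 102 of these other chaperone genes were tested, and 3 passed in at least 1 comparison, none of them Unc45a. In pregnant against virgin mice Dnajb4, a close relative of Dnajb1, fell (log2 fold change -1.68 ± 0.29, edgeR adjusted p = 0.00715, 2.09% of all genes called lower), with 49.4, 46.6 and 36.3 CPM in pregnant against 144, 130 and 151 CPM in virgin libraries. Pdia6, a disulfide isomerase of the endoplasmic reticulum, rose in pregnant against virgin (0.82 ± 0.14, edgeR adjusted p = 0.00814, 1.18% called higher) and in lactating against virgin mice (0.75 ± 0.16, adjusted p = 0.0273, 1.76%). Dnajc3, a co-chaperone of BiP in the same compartment, rose in the same comparisons (0.57 ± 0.14, edgeR adjusted p = 0.0451, and 0.67 ± 0.15, adjusted p = 0.0340). None of the 102 was called in the other 4 comparisons.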

How the data were processed

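The deposited values are unnormalized counts of reads for each gene, with a gene length column. Per the submitters' processing notes, featureCounts made them on mm10, and per the labels' protocols a SMART-Seq v4 kit produced the cDNA and 1 NextSeq 500 run held all libraries. With no molecular identifiers in that kit, PCR copies count as reads. Aligner, versions, strand setting and the handling of reads that match several genes: not given in the sources used here. Entrez identifiers were matched to symbols in a RefSeq table of GRCm38.p6 (25275 of 27179 genes, 93.0%; the rest held at most 0.825% of a library's counts).

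filterByExpr by stage kept 12672 genes, TMM scaled the libraries, and edgeR 4.0.16 (R 4.3.3, limma 3.58.1) fitted all 12 together by robust quasi-likelihood, each stage with its own mean (common biological coefficient of variation 0.856). Adjusted p-values (Benjamini-Hochberg over all genes tested) under 0.05 were called. CPM used TMM-scaled library sizes and RPKM the deposited lengths. P-values measure the spread between samples labelled biological replicates. The procedure was run on counts simulated with known fold changes from the spread of this same fit. That run checks the code, not whether the fit suits these libraries. Alternatives were DESeq2 1.42.0, RLE scaling, no low-count filter, the HSP70 pair summed, a replicate block, only the 6 libraries compared, and each library left out.

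The 10 genes and all lists were chosen with earlier results of these data known. The text names all 10, up to 8 called genes of the other chaperone lists per comparison, the 5 genes most like Hspa1a, Hsph1 and Hsp90ab1, and a few fixed context genes.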

Additional observations from a re-analysis of the deposited data

How the results depend on the processing

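Of 1140 refitted log2 fold changes (10 genes in 6 comparisons), 1062 kept their direction and their side of the threshold, 19 kept their direction and passed it, and 59 changed sign. In the fits of the summed pair, the 1 value of the sum was counted under both Hspa1a and Hspa1b. RLE scaling, no low-count filter and the HSP70 pair summed called 0 of the 10 genes in every comparison. Leaving out 1 library gave 0 to 1 gene in pregnant against virgin, 0 to 2 in lactating against virgin, 0 in post-weaning against virgin, 0 to 1 in lactating against pregnant, 0 to 2 in post-weaning against lactating, 0 to 2 in post-weaning against pregnant and 0 to 3 in the test of any difference; each count above 0 came from leaving out lactating replicate 3, and the other 11 libraries gave 0. With the pair summed and that library left out, chosen after seeing the data, the counts were 1 in lactating against virgin, 1 in lactating against pregnant, 1 in post-weaning against lactating, 1 in post-weaning against pregnant (Hspe1) and 2 in any difference. Of all genes, 3.09%, 5.13%, 1.8%, 2.29% and 5.75% were called in that order, in either direction. In post-weaning against pregnant mice, the fit to the 6 libraries compared called 5 and DESeq2 called 1, and DESeq2 called 1 in any difference (Hspe1, adjusted p = 0.0316); the cause was not tested.

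The sign changes fell on 21 of the 60 fold changes. Of these, 18 were at most 0.67 in size with all libraries and were called under no setting that turned them. Among them, without lactating replicate 3, Hsph1 was -0.18 in lactating against virgin (0.67 with it) and -0.36 in lactating against pregnant mice (0.50), and Hspa8 -0.10 in the last (0.44). The other 3 belong to the HSP70 pair. Hspa1a in lactating against pregnant mice, 0.24 with all libraries, was -0.10 with the pair summed and -2.49 summed without lactating replicate 3, and ran from -2.34 to 0.71 with 1 library left out. Hspa1a in post-weaning against virgin mice, 0.38, ran from -0.0059 (without post-weaning replicate 1) to 0.84, and Hspa1b in lactating against pregnant mice, -0.32, from -2.58 to 0.21 (without lactating replicate 2; 0.03 without lactating replicate 1). Same-numbered libraries did not deviate together (r from -0.08 to 0.08), and a fit with the replicate number as a block called 0 of the 10 genes in every comparison and gave -0.49 for Hspa1a in lactating against pregnant mice.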

Other observations

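The 14 endoplasmic reticulum chaperone genes took a larger share of the counts than the 10 heat-shock genes in every library. Their share was 0.933 ± 0.087% in virgin libraries, 1.14 ± 0.12% in pregnant ones, 0.688 ± 0.205% in lactating ones and 0.801 ± 0.082% in those after weaning (SD, n = 3 each). The low lactating mean rests on lactating replicate 3, with 0.457%. Lactating replicates 1 and 2 had 0.763% and 0.845%, within the post-weaning range of 0.716% to 0.879%. The fitted log2 fold change of these endoplasmic reticulum genes was below 0 for 13 of the 14 in post-weaning against pregnant mice and for 12 of the 14 in lactating against pregnant mice, against 49.7% and 55.4% of all genes tested. The lactating count includes lactating replicate 3 and was not taken without it. Without that library, the median log2 fold change of the 14 in lactating against pregnant mice was -0.17, against -0.25 over all genes tested. None of the 14 was called in the edgeR fit to 12 libraries (0.718% and 3.85% of all genes were). At an unadjusted p under 0.05 were 1 of the 14 in post-weaning against pregnant mice, where 10.2% of all genes were, and 2 in lactating against pregnant mice, where 18.6% were. TRiC and prefoldin genes (14 genes) took 0.190 ± 0.003%, 0.226 ± 0.013%, 0.173 ± 0.023% and 0.181 ± 0.013% in virgin, pregnant, lactating and post-weaning libraries. Small heat-shock protein genes (8 genes) took at most 0.0113% of any library, which was lactating replicate 3.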
